A study of Mus musculus with 7 samples.

Results

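Mesenchyme and endocardial cushion genes were examined in the posterior second heart field (pSHF), the progenitor tissue that gives rise to the dorsal mesenchymal protrusion. The 10 genes were *Snai1*, *Snai2*, *Twist1*, *Twist2*, *Prrx1*, *Prrx2*, *Tgfb2*, *Has2*, *Postn* and *Nfatc1*. They were chosen for their known place in mesenchyme and cushion formation, with earlier results of these data known. Every array probe carrying one of these symbols was taken. The 10 genes had 17 probes, of 34747 probes for 21475 named genes on the array. Of these, 16 probes covering all 10 genes were bright enough to be tested, out of 23129 tested probes for 14896 genes.

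RNA came from pSHF tissue of mouse embryos at E9.5 and was hybridized to 1 single-colour Agilent array per pool. The tissue was dissected together with the attached foregut and nearby ventral lateral plate mesenchyme. Heart, neural tube and dorsal lateral plate mesenchyme were taken away. There were 4 pools from *Shh -/-* embryos, in which Sonic hedgehog is missing from every tissue and not from the foregut alone, and 3 from *Shh +/+* embryos. All embryos were of the background given as C56B/6 and CD-1 mixed, from superovulated *Shh +/-* females mated to *Shh +/-* males, and tissue of several embryos of 1 genotype was combined in each pool. The mutant pools are numbered 1, 2, 3 and 4 and the wild-type pools 1, 3 and 4, and values by pool are given in that order. Pools of equal number lay on 1 slide, where the mutant array was always at position 1 and the wild-type array at position 2, and so an effect of the position and one of genotype cannot be told apart. No wild-type pool shared the slide of mutant pool 2, whose label notes a leak during hybridization. The sources do not say how many litters stand behind a pool, and the p-values measure the spread between these pools.

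Cushion mesenchyme arises when endocardial cells lose their junctions and move into a swollen matrix, and the dorsal mesenchymal protrusion brings mesenchyme from the pSHF to the base of the atrial septum. TGF-beta and BMP ligands start the transition, zinc finger and bHLH factors of the Snail and Twist families carry it out by repressing epithelial genes, and hyaluronan and matricellular proteins make up the matrix the cells enter. Paired-related homeobox factors mark mesenchyme more widely, and NFATc1 marks endocardium, where it acts in valve growth.

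Median spot signals were 86.4 to 145.3 intensity units per array over a local background of 21 to 25, and 59.96% to 70.6% of probes were well above background. *Shh* itself, the deleted ligand, read 9.67, 9.39, 9.22 and 9.32 on the normalized log2 scale in the mutant pools and 10.72, 10.74 and 9.98 in the wild-type pools, lower in every mutant pool (log2 fold change −1.08 ± 0.20 SE, limma adjusted p = 0.0655). Its adjusted p was 0.0464 with slide as a random block, 0.0352 with the interquartile range filter, 0.0358 with a variance trend and 0.0449 without wild-type pool 4, where it passed. It did not pass with 75th percentile scaling (limma adjusted p = 0.0809), quantile normalization (0.0640), local background (0.274) or no background correction (0.0508). Nor did it pass with outlier spots kept (0.0692), no filter on dim probes (0.139) or the authors' values (0.934, and 0.277 with 1 median per array). Among its targets *Hhip*, a Hedgehog-binding inhibitor, fell by 2.83 on the log2 scale (adjusted p = 0.00125), and *Ptch1*, the receptor, and *Gli1*, the activator, differed by −1.17 and −1.02 with no overlap between genotypes and adjusted p-values of 0.142 and 0.0675. With local background *Hhip* differed by −1.55 and *Ptch1* by −0.26, and under quantile normalization *Ptch1* by −0.65. The pSHF markers *Isl1*, *Osr1* and *Tbx5* were well above background in all 7 pools. Of the 12 pSHF markers 9 were lower in the mutant and 0 passed the test. The genotypes did not overlap for 4 of them, all lower in the mutant, among them *Isl1* (−0.43 ± 0.13 SE, adjusted p = 0.318) and *Osr1* (−0.88 ± 0.24 SE, adjusted p = 0.232), and the part of this in the values of the 10 genes was not tested.

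No probe of the 10 genes passed the test. The largest difference was in *Postn*, which was 1.75-fold higher in the mutant mean. *Snai1* and 1 dim probe of *Prrx1* were lower in every mutant pool than in every wild-type pool, and *Snai2* and *Tgfb2* were higher in every mutant pool, all by less than 2-fold. *Nfatc1* differed more among the mutant pools themselves than between the genotypes. For the other probes the genotypes overlapped.

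In numbers, 0 of the 16 probes reached a limma adjusted p under 0.05, where 0.558% of all tested probes did (129 of 23129). At an unadjusted p under 0.05 there were 5 of 16 (31.2%) against 7.96% of all probes. Without wild-type pool 1 the 5 became 1, without mutant pool 1 or mutant pool 3 they became 2, and without wild-type pool 4 they became 3. The genotypes did not overlap for 2 probes lower in the mutant (background 3.56%) and 2 higher (background 4.77%). The dim *Prrx1* probe A_52_P335587 was 1 of these 2 lower probes and 1 of the 5 at an unadjusted p under 0.05. It passed the brightness filter only through the wild-type pools, where it was higher. The median log2 fold change was −0.07, against 0.02 over all tested probes, and the median size without sign was 0.26 against 0.10. The genes were chosen with earlier results of these data known, so these shares and sizes are not those of an independent set. In the mutant 10 probes were lower and 6 higher, where 10331 of all 23129 were lower. Of the lower probes 5 were of *Prrx1*, so that 5 genes were lower and 5 higher. Without wild-type pool 1, and in the authors' values with 1 median per array, 7 probes were lower, and without mutant pool 3 there were 6. On the 3 slides that held both genotypes, 4 probes were lower in the mutant every time, 4 were higher every time and 8 had mixed signs. The 4 lower probes included both tested dim *Prrx1* probes, A_52_P335587 and A_52_P480842, which passed the brightness filter only through the wild-type pools. Both also count among the 10 lower probes and in the medians, so these tallies are no support for a difference. In the authors' normalized values the median difference of all probes was itself −0.54, and *Snai2*, *Twist1*, *Tgfb2* and *Nfatc1*, like the list genes *Cdh2*, *Acvr1*, *Col3a1*, *Adamts9*, *Tnc* and *Hey2* described further on, had negative differences there, all of them less negative than that median. In whole tissue, fewer cells of a type and less RNA per cell cannot be told apart.

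**Figure D1:**
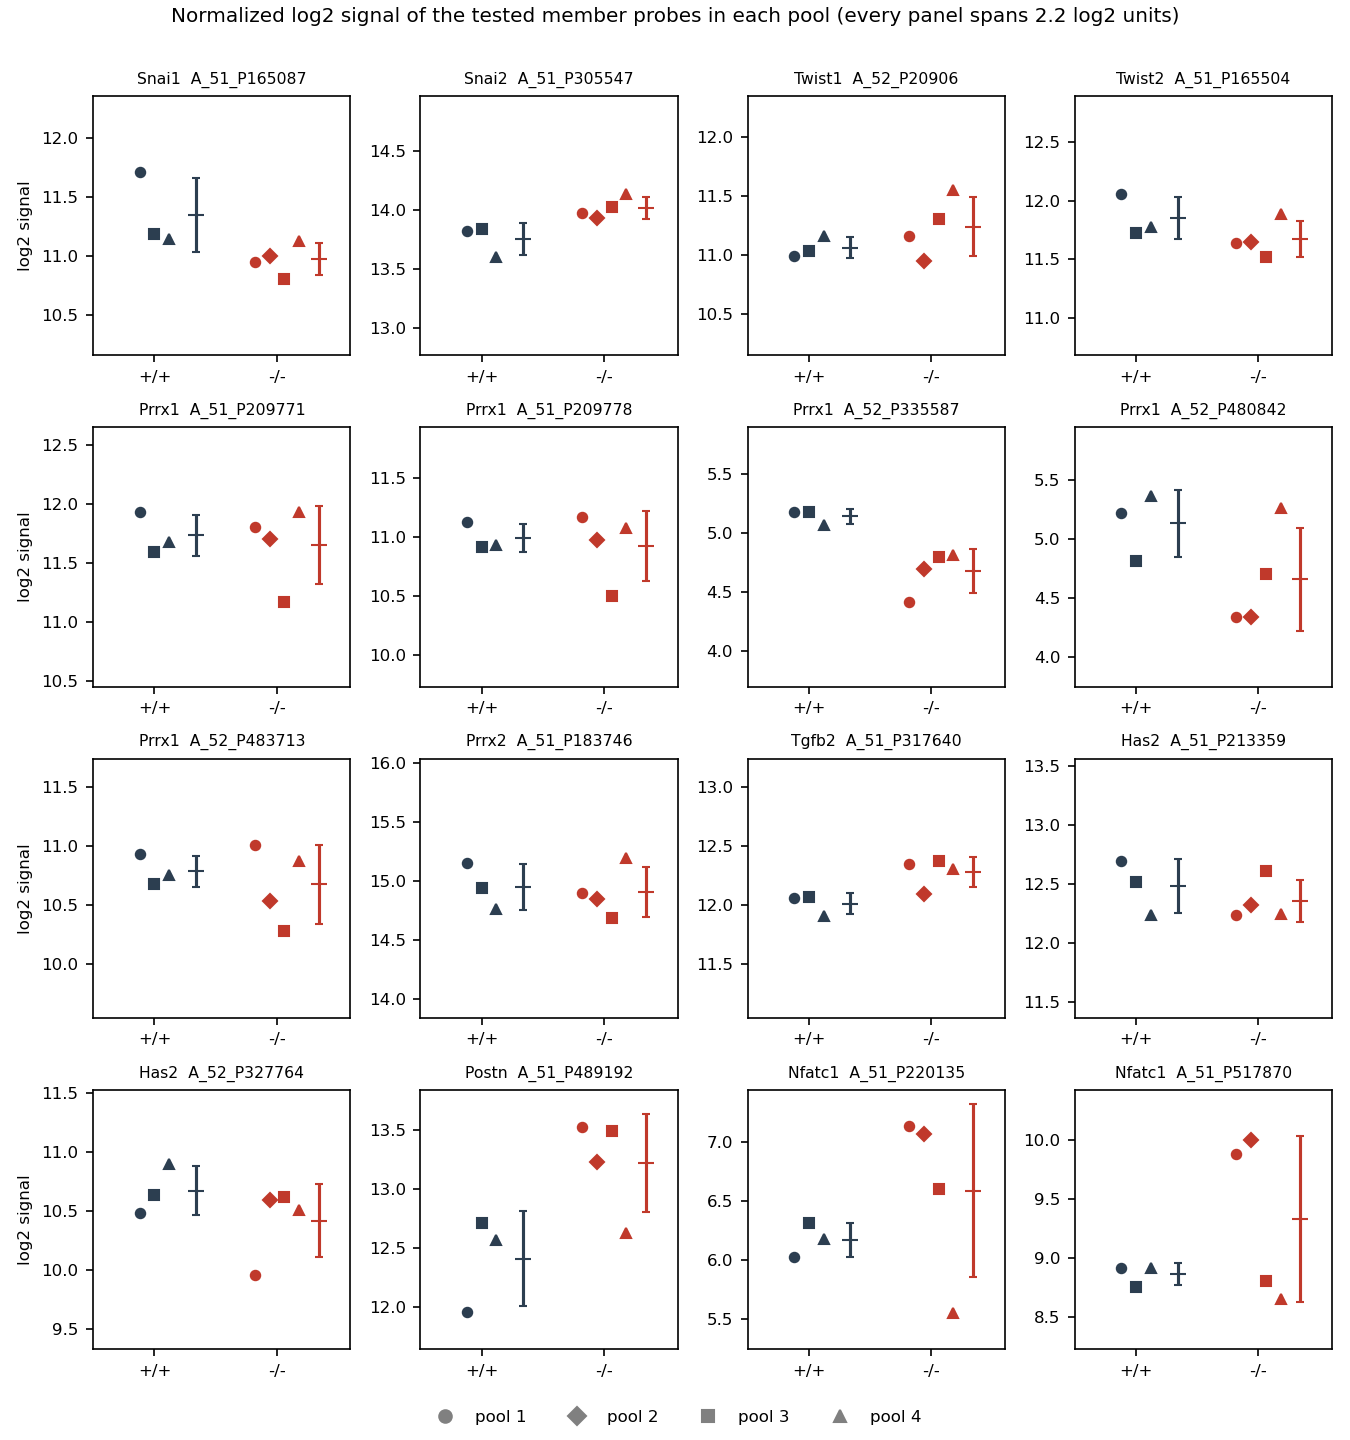
Normalized log2 signal (vertical axis) of the 16 tested probes in each pool, with *Shh +/+* pools in dark blue and *Shh -/-* pools in red, symbols marking the pool number, and bars giving mean ± SD. Every panel spans the same number of log2 units. The genotypes are apart for *Snai1*, *Snai2*, *Tgfb2* and *Prrx1* probe A_52_P335587, and the red points of *Nfatc1* lie both above and below the blue ones.

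*Snai1* encodes a zinc finger repressor of E-cadherin and a classical driver of epithelial-to-mesenchymal transition (EMT). Its probe (A_51_P165087, mm9 chr2:167368073-167368132, plus strand) read 10.95, 11.01, 10.81 and 11.13 in the mutant pools and 11.71, 11.19 and 11.15 in the wild-type pools. All mutant pools were below all wild-type pools, but mutant pool 4 and wild-type pool 4 were nearly level and wild-type pool 1 stood well above the other wild-type pools. The log2 fold change was −0.37 ± 0.16 SE, a mutant level of 77.2% of wild type, with a 95% confidence interval from −0.74 to −0.01 and an adjusted p of 0.595. The exact two-sided permutation test over the 7 pools gave p = 0.0286, the smallest it can give here, since there are 35 splits. On slides 1, 3 and 4 the differences were −0.76, −0.38 and −0.02, and without wild-type pool 1 the log2 fold change was −0.19.

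SNAI1 binds the E-box CAGGTG, read as CACCTG on the other strand, and is known to act on its own promoter, which is why that promoter is shown. The 250 bases before the *Snai1* start site in RefSeq, build GRCm38.p6, chr2:167537945-167538194, plus strand, hold 1 such match in capitals, at position −126 from the start.
Snai1 promoter: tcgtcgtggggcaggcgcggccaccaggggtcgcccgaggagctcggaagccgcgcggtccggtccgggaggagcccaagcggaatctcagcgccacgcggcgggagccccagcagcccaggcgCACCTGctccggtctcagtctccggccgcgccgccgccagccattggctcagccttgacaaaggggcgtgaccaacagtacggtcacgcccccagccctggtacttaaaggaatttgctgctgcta
In windows from 250 bases before to 50 after the start, searched on both strands, the E-box was found in 6640 of 32851 mouse promoters (20.2%). Of the 10 genes 7 matched the promoter table with 8 windows, and 1 of these, that of *Snai1*, held it. The GLI motif GACCACCCA was in 83 of all promoters (0.253%) and in 0 of the 8 windows. These are matches of letters in short windows and not binding sites.

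*Snai2*, the second Snail family member expressed here, moved the other way from *Snai1* in its mean. Mutant pools read 13.97, 13.93, 14.03 and 14.14, and wild-type pools 13.82, 13.84 and 13.60. Each mutant pool was above each wild-type pool, and the gap on slide 4 was the widest at 0.54, against 0.15 and 0.19 on slides 1 and 3. The log2 fold change was 0.27 ± 0.11 SE (95% confidence interval 0.01 to 0.52, limma adjusted p = 0.599), 1.20-fold, and the exact permutation p was 0.0286.

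The bHLH factors *Twist1* and *Twist2* act beside the Snail factors in mesenchyme and differed little. *Twist1* was 11.15, 10.95, 11.30 and 11.55 in the mutant pools and 10.99, 11.03 and 11.16 in the wild-type pools. Mutant pool 2 was the lowest of all 7 and mutant pool 4 the highest, with a mean difference of 0.18 ± 0.15 SE (95% confidence interval −0.16 to 0.52). Its within-slide differences were 0.16, 0.27 and 0.39, all toward the mutant. For *Twist2* the mutant pools read 11.64, 11.65, 11.52 and 11.89 and the wild-type pools 12.06, 11.72 and 11.78. The genotypes overlapped through mutant pool 4, and the difference was −0.18 ± 0.13 SE (95% confidence interval −0.48 to 0.12), with −0.42, −0.20 and 0.11 on slides 1, 3 and 4. As fold changes these intervals run from 0.893 to 1.43 for *Twist1* and from 0.716 to 1.09 for *Twist2*.

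*Prrx1* was covered by 6 probes along chromosome 1, minus strand, and its probes gave differences of unequal size. This paired-related homeobox factor marks limb, facial and lateral plate mesenchyme. The 3 probes that were well above background on all 7 arrays gave small differences, while the dim ones that were tested were lower in the mutant mean. The remaining dim probe was too dim to be tested. The printed sequences are the bright probes that the array annotation assigns to 3 *Prrx1* transcripts each, in lower case throughout, given to show which parts of the message were read.
A_52_P483713 (mm9 chr1:165191982-165192041): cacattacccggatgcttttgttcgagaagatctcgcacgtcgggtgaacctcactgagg
A_51_P209778 (mm9 chr1:165187974-165188033): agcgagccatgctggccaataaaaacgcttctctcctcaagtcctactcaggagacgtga
The former lies in the homeobox, the DNA-binding part.

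Probe A_52_P483713 read 11.01, 10.54, 10.28 and 10.88 in the mutant pools against 10.93, 10.68 and 10.76 in the wild-type pools. Probe A_51_P209778 read 11.17, 10.97, 10.5003 and 11.08 against 11.13, 10.92 and 10.94. The bright probe A_51_P209771, assigned to fewer transcripts, read 11.80, 11.71, 11.17 and 11.93 against 11.93, 11.59 and 11.68. In all 3 the lowest value was that of mutant pool 3 and the genotypes overlapped. Their log2 fold changes were −0.11 ± 0.18, −0.06 ± 0.17 and −0.08 ± 0.19 (SE), with 95% confidence intervals of −0.52 to 0.30, −0.44 to 0.32 and −0.51 to 0.34. On slide 3 they were −0.40, −0.42 and −0.42, and on slide 4 they were 0.12, 0.14 and 0.25. Without mutant pool 3 the log2 fold changes were 0.02, 0.08 and 0.08, and without wild-type pool 1 the latter probes gave 0.0043 and 0.017.

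The dim *Prrx1* probe A_52_P335587 (mm9 chr1:165177177-165177236) had the lowest adjusted p of all 16 probes, 0.230 (limma, unadjusted p = 0.00584). It read 4.42, 4.70, 4.80 and 4.82 in the mutant pools and 5.18, 5.18 and 5.07 in the wild-type pools, with no overlap and differences of −0.77, −0.38 and −0.25 on slides 1, 3 and 4. The signal was well above background in 2 of 4 mutant pools and 3 of 3 wild-type pools. The probe thus passed the brightness filter only through the wild-type pools, where it was higher. Its p-value and lack of overlap are therefore no support for a difference. The measured log2 fold change was −0.46 ± 0.13 SE. With each mutant pool held at no less than the lowest signal well above background on its array, the measured mutant mean was 1.28-fold lower. This figure is for these pools on this normalization. It leaves out the spread between pools, and the 95% confidence interval of the ratio of mutant to wild type ran from 0.595 to 0.888. It does not hold under other normalizations. Under quantile normalization the difference was −0.14, with local background it was −0.0047, and in the authors' values with 1 median per array it was 0.03. A second dim probe, A_52_P480842, read 4.34, 4.33, 4.70 and 5.26 in the mutant pools and 5.22, 4.81 and 5.36 in the wild-type pools, with overlap, and was well above background in 2 of 4 mutant pools. It too passed the filter only through the wild-type pools. Its measured difference was −0.47 ± 0.24 SE (95% confidence interval −1.02 to 0.07, limma adjusted p = 0.753). Under quantile normalization it was −0.13, with local background −0.01 and with 1 median per array 0.02. The remaining probe, A_51_P262972, was well above background in 0 of 4 mutant and 1 of 3 wild-type pools and was not tested.

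*Prrx2*, the paralog, was read by 1 bright probe. It gave 14.90, 14.85, 14.68 and 15.19 in the mutant pools and 15.15, 14.94 and 14.76 in the wild-type pools. The highest and the lowest of the 7 values were both mutant, in pools 4 and 3. The log2 fold change was −0.04 ± 0.15 SE (95% confidence interval −0.39 to 0.30), with −0.25, −0.26 and 0.44 on slides 1, 3 and 4. Its sign turned without wild-type pool 1 (0.06), without mutant pool 3 (0.03), with local background (0.23) and in the authors' values with 1 median per array (0.33).

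*Tgfb2*, the ligand that promotes cushion transformation, read 12.35, 12.10, 12.38 and 12.31 in the mutant pools and 12.06, 12.07 and 11.91 in the wild-type pools. The mutant pools were all higher, although mutant pool 2 was only just above wild-type pools 1 and 3. The difference was 0.27 ± 0.11 SE (95% confidence interval 0.01 to 0.53, limma adjusted p = 0.585), 1.21-fold, and the exact permutation p was 0.0571. Of all members *Tgfb2* had the most even within-slide differences among those whose genotypes did not overlap, at 0.29, 0.31 and 0.40.

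*Has2* makes the hyaluronan that swells the cushion matrix, and its probes read lower mutant means within the spread of the pools. Probe A_51_P213359 gave 12.24, 12.32, 12.61 and 12.24 in the mutant pools and 12.69, 12.52 and 12.24 in the wild-type pools. Probe A_52_P327764 gave 9.95, 10.59, 10.62 and 10.503 against 10.48, 10.64 and 10.90. The genotypes overlapped on both. The log2 fold changes were −0.13 ± 0.15 SE (95% confidence interval −0.46 to 0.21) and −0.26 ± 0.18 SE (−0.67 to 0.16), and both were negative under all alternatives tried, except that A_51_P213359 was level or slightly higher in the mutant on slides 3 (0.095) and 4 (0.00683). The sizes were less steady, with −0.022 for A_51_P213359 without wild-type pool 1, −0.25 without wild-type pool 4 and −0.21 without mutant pool 3, and for A_52_P327764 −0.10 without mutant pool 1 and −0.14 without wild-type pool 4.

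*Postn* encodes periostin, a matricellular protein of cushions, valves and other fibrous mesenchyme. Mutant pools 1, 2 and 3 read 13.53, 13.23 and 13.49, while mutant pool 4 read 12.63. The wild-type pools read 11.95, 12.71 and 12.57. Mutant pools 1, 2 and 3 were thus above all wild-type pools, and mutant pool 4 lay between wild-type pools 4 and 3. The log2 fold change was 0.81 ± 0.25 SE (95% confidence interval 0.23 to 1.39), 1.75-fold, with a limma adjusted p of 0.318 and an exact permutation p of 0.0857. By slide the differences fell into a wide range, 1.58 on slide 1, 0.79 on slide 3 and 0.06 on slide 4. Without mutant pool 4 the log2 fold change was 1.01 (adjusted p = 0.115) and without wild-type pool 1 it was 0.58 (adjusted p = 0.680). The sign was positive under all alternatives tried.

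**Figure D2:**
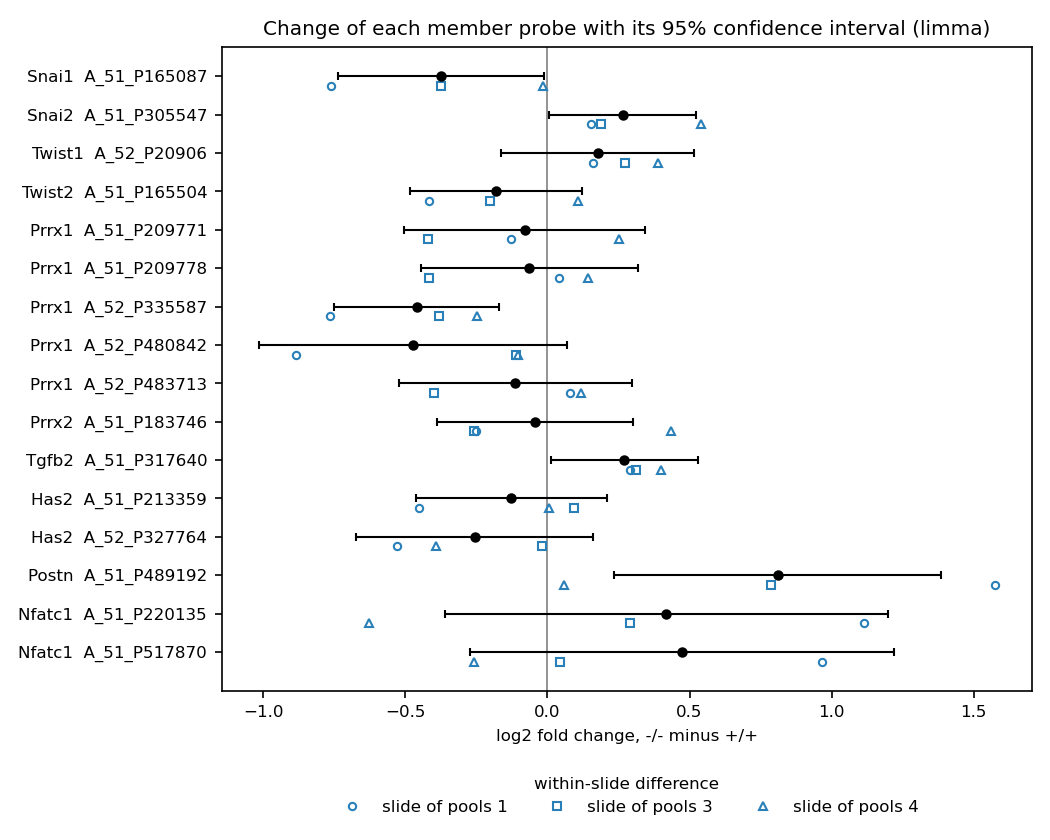
Log2 fold change of the mutant over the wild type (horizontal axis) for the 16 tested probes, with filled points for the limma estimate, bars for its 95% confidence interval, and open symbols for the difference within each slide that held both genotypes. Bars of 11 of the 16 probes cross 0, and the open symbols are widest apart for *Postn* and *Nfatc1*.

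Wild-type pool 1 had the highest *Snai1* and *Twist2* and the lowest *Postn* of all pools. The same pool had the highest means of the erythroid list (13.13, against 12.37 and 12.38 in wild-type pools 4 and 3 and 12.01 to 12.39 in the mutant pools) and of the sclerotome list (8.11 against 7.60 to 7.63 and 6.44 to 6.81). The part of these in the *Snai1* and *Postn* differences was not tested.

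*Nfatc1* was the member with the largest spread among mutant pools. Probe A_51_P220135 read 7.14, 7.06, 6.60 and 5.54 in the mutant pools and 6.02, 6.31 and 6.17 in the wild-type pools. Probe A_51_P517870 read 9.88, 9.996, 8.80 and 8.65 against 8.92, 8.75 and 8.91. On both probes mutant pools 1 and 2 were above all wild-type pools and mutant pool 4 was below all of them. The SD among mutant pools was 0.73 and 0.70, against 0.14 and 0.09 among wild-type pools. The log2 fold changes of 0.42 ± 0.34 SE and 0.47 ± 0.33 SE had 95% confidence intervals of −0.36 to 1.20 and −0.27 to 1.22, and the within-slide differences turned sign between slide 1 (1.11 and 0.97) and slide 4 (−0.63 and −0.26). Without mutant pool 4 the log2 fold changes were 0.77 (limma adjusted p = 0.130) and 0.70 (0.517). They were 0.23 and 0.29 without mutant pool 1, and 0.26 and 0.25 both without mutant pool 2 and with slide as a fixed block.

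Some genes of heart tissue, though not the NFAT and endocardium list as a whole, differed between the mutant pools in a like order. The mean of 10 cardiomyocyte genes was 14.36, 14.02, 13.99 and 13.11 in the mutant pools and 13.75, 13.91 and 13.31 in the wild-type pools, and 9 of the 10 genes were lowest in mutant pool 4 among mutant pools. *Bmp2*, the myocardial signal for cushion formation, read 7.52, 7.32, 7.14 and 6.22 in the mutant pools and 6.43, 6.86 and 6.55 in the wild-type pools. *Tbx20*, a T-box factor of myocardium and endocardium, read 10.23, 10.08, 9.53 and 8.08 against 8.88, 9.27 and 8.55. For 10 endothelial and endocardial genes the mean moved less, at 10.84, 10.62, 10.79 and 10.44 in the mutant pools and 10.49 to 10.66 in the wild-type pools, with 8 of 10 genes lowest in mutant pool 4 among mutant pools. Of 7 proepicardial genes 0 were lowest in that pool. The mean of the 17 tested genes of the NFAT and endocardium list, described further on, did not follow this order. It was 10.48, 10.36, 10.40 and 10.40 in the mutant pools and 10.49, 10.45 and 10.39 in the wild-type pools. *Bmp2* and *Tbx20* were named after their values were seen, and other heart genes of the lists were divided. Among mutant pools *Nkx2-5* and *Mef2c* were lowest in pool 4 (10.84 and 10.79), while *Hand2* and *Klf2* were highest there (9.20 and 13.46). The cardiomyocyte gene *Myl7* was also highest in mutant pool 4 (17.33). These genes, too, were named after their values were seen. All 10 cardiomyocyte genes were well above background on all 7 arrays, although the heart is described as removed. Their part in the *Nfatc1* values was not tested.

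**Figure D3:**
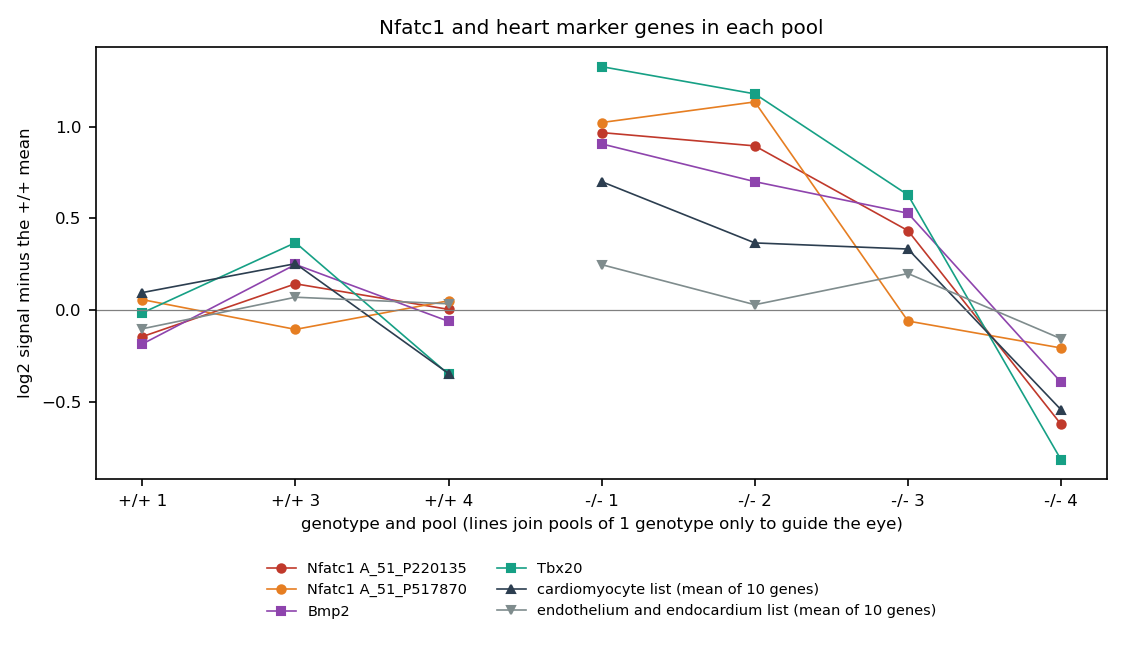
Log2 signal minus the *Shh +/+* mean (vertical axis) in each pool (horizontal axis) for both *Nfatc1* probes, *Bmp2*, *Tbx20* and the means of 10 cardiomyocyte and 10 endothelial and endocardial genes. All 6 traces are at or above the wild-type mean in mutant pools 1 and 2 and below it in mutant pool 4. *Bmp2* and *Tbx20* were picked after their values were seen, and other heart genes did not all follow them.

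Several of the 10 genes are expressed in more than 1 kind of mesenchyme, so marker lists of other tissues are given beside them as values, with no test of a list as a whole. Sclerotome genes averaged 6.44 to 6.81 in the mutant pools and 7.60 to 8.11 in the wild-type pools, with 2 of 7 called lower, *Pax1* (−3.01) and *Pax9*. The *Pax9* signal was well above background in only 1 of 4 mutant pools, so no size is given for it. Its probe passed the brightness filter only through the wild-type pools. Neural crest genes averaged 8.40 to 8.78 against 8.82 to 9.10, with 0 of 9 called. Limb and lateral plate mesenchyme genes averaged 8.95 to 9.46 against 8.45 to 8.76, with 1 of 5 called higher, *Lhx9* (0.98). Proepicardial genes averaged 10.80 to 11.14 against 10.52 to 10.63, with 0 of 7 called, and liver bud genes 9.96 to 10.503 against 9.28 to 9.68, with 3 of 9 called higher, *Alb* (1.22), *Ttr* (0.91) and *Fga* (1.45). Foregut epithelial genes averaged 11.01 to 11.04 against 11.14 to 11.31 with 0 of 10 called. The part of each in the values of the 10 genes was not tested. Over all tested probes 0.294% were called lower and 0.264% higher. The marker lists were chosen with earlier results of these data known, so their calls are not those of an independent set.

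Around the 10 genes, 86 genes in 5 lists gave the rest of the pathway. Of these 81 were tested, and 1 was called (1.23%, background 0.558%), the forkhead factor *Foxf2*, which was lower in the mutant. The genotypes did not overlap for 7 genes higher in the mutant (8.64%, background 4.77%) and 6 lower (7.41%, background 3.56%). The lists, too, were chosen with earlier results of these data known, so the shares are not those of an independent set.

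The EMT and adhesion list, made of Snail and Zeb factors, E-proteins, Id factors, cadherins and other junction and filament genes, had 15 of 16 genes tested and 0 called. It had 7 higher and 8 lower in the mutant and a median log2 fold change of −0.01. N-cadherin, *Cdh2*, read 11.09, 10.79, 11.04 and 10.98 in the mutant pools and 10.42, 10.67 and 10.60 in the wild-type pools, without overlap (0.41 ± 0.12 SE, limma adjusted p = 0.272). E-cadherin, *Cdh1*, the gene that SNAI1 represses, differed by −0.20 ± 0.17 SE (95% confidence interval −0.59 to 0.20).

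Of 15 tested TGF-beta and BMP genes 13 were higher in the mutant and 0 were called, with a median of 0.10. Among all 23129 tested probes 12798 were higher, with a median of 0.02. The balance of signs moved with the processing. Of 85 tested genes of the pathway and Hedgehog target lists 35 were lower, against 48 with local background and 29 in the authors' values with 1 median per array. *Acvr1*, a type I BMP receptor needed in cushion transformation, read 11.10, 10.89, 10.72 and 10.75 in the mutant pools and 10.28, 10.47 and 10.44 in the wild-type pools (0.47 ± 0.13 SE, limma adjusted p = 0.219). The ligands related to *Tgfb2*, *Tgfb1* and *Tgfb3*, each differed by 0.12 (95% confidence intervals −0.13 to 0.38 and −0.17 to 0.41), and the receptors *Tgfbr1* and *Tgfbr2* by 0.02 and 0.03.

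Among matrix genes 11 of 16 tested were higher in the mutant, 0 were called, and the median was 0.18. Over all tested probes 12798 of 23129 were higher. The genotypes did not overlap for tenascin C, *Tnc* (0.58 ± 0.15 SE, limma adjusted p = 0.166), the versican protease *Adamts9* (0.36 ± 0.13 SE, adjusted p = 0.447) and the collagen *Col3a1* (0.18 ± 0.10 SE, adjusted p = 0.840). *Tnc* read 10.13, 10.14, 10.48 and 10.26 in the mutant pools and 9.41, 9.74 and 9.86 in the wild-type pools. The hyaluronan partners of *Has2*, the proteoglycan *Vcan*, the link protein *Hapln1* and the receptor *Cd44*, differed by −0.13, −0.06 and 0.12 with overlap. *Has1* and *Has3*, the other hyaluronan synthases, were not bright enough to be tested.

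The 18 mesenchyme transcription factors and receptors held the widest range, from −2.43 to 0.66, with a median of 0.08. *Foxf2* read 9.95, 9.80, 9.63 and 9.88 in the mutant pools and 12.66, 11.95 and 12.12 in the wild-type pools. It fell by 2.43 on the log2 scale (± 0.18 SE, limma adjusted p = 0.00213), a difference far beyond the spread of the pools on every slide. The somite factor *Meox1* (−1.10 ± 0.24 SE, adjusted p = 0.105) and the forkhead factor *Foxf1a* (−0.80 ± 0.17 SE, adjusted p = 0.0929) did not overlap between genotypes and did not pass, although *Meox1* did with the interquartile range filter (adjusted p = 0.0475). Also without overlap were *Foxc1*, another forkhead factor (−0.70 ± 0.17 SE, adjusted p = 0.140), and the homeobox factor *Alx4*, which was higher in the mutant (0.66 ± 0.15 SE, adjusted p = 0.1203). In the NFAT and endocardium list 0 of 17 tested genes were called, 8 were higher and 9 lower, and the median was −0.00305. The genotypes did not overlap for the Notch target *Hey2* (0.49 ± 0.14 SE, adjusted p = 0.264), the endocardial ligand *Nrg1* (−0.43 ± 0.13 SE, adjusted p = 0.290) and the GATA factor *Gata5* (−0.37 ± 0.13 SE, adjusted p = 0.434). The NFAT genes *Nfatc2*, *Nfatc3* and *Nfatc4* differed by −0.00305, 0.08 and −0.16.

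**Figure D4:**
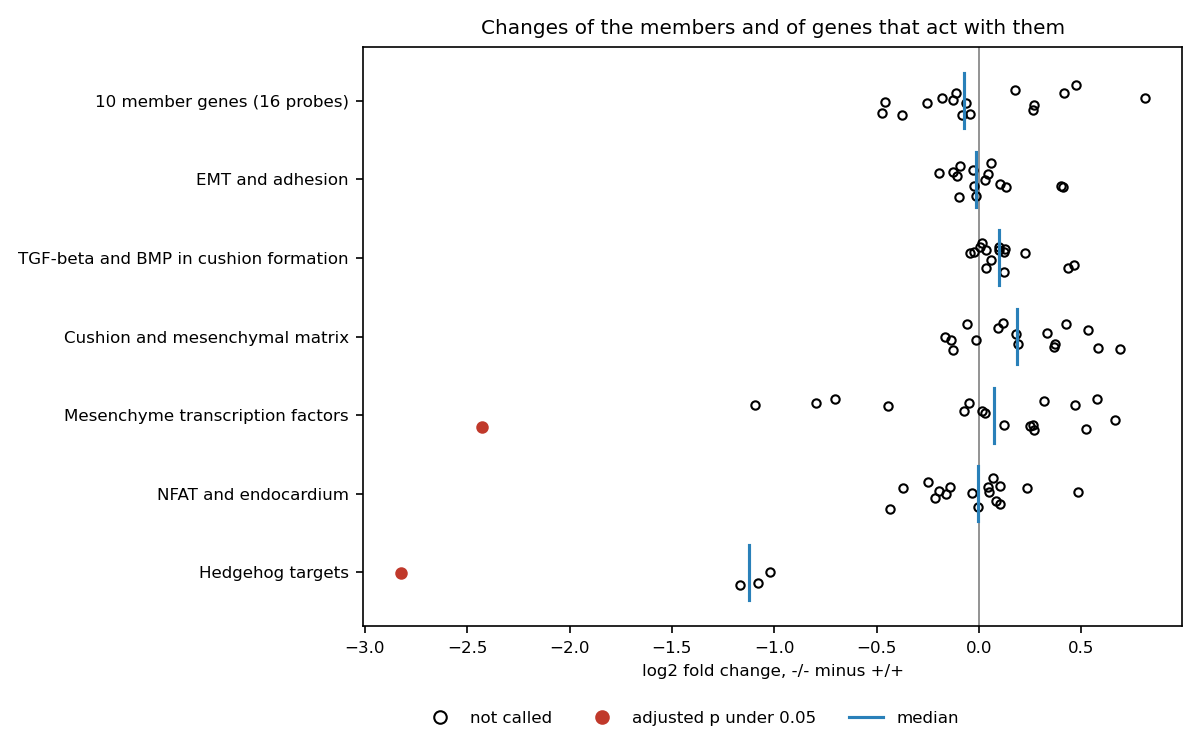
Log2 fold change of the mutant over the wild type (horizontal axis) for the 16 tested probes of the 10 genes and for 1 probe per gene of 6 lists, with open circles for genes that did not pass, filled red circles for an adjusted p under 0.05, and blue bars for medians. The filled circles are *Foxf2* at −2.43 and *Hhip* at −2.83, and the 10 genes lie between −0.47 and 0.81. The −0.47 is that of the dim *Prrx1* probe A_52_P480842, which was tested only through the wild-type pools. Among probes well above background on all 7 arrays the lowest is *Snai1* at −0.37.

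The profile of *Postn*, the member with the largest difference, was compared across the 7 arrays with those of other genes by the mean absolute difference of log2 values after each probe was centred on its own mean, over 23027 probes. Closest to *Postn* were the matrix gene *Fbln2* (0.126), the integrin subunit *Itga4* (0.127) and the proteoglycan *Lum* (0.139). *Fbln2* read 13.34, 13.27, 13.13 and 12.50 in the mutant pools and 12.10, 12.51 and 12.50 in the wild-type pools. As for *Postn*, mutant pool 4 was the lowest mutant pool and wild-type pool 1 the lowest of all. The next by size was a dim *Prrx1* probe, for which no like profiles are given because part of its values were not well above background.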

How the data were processed

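RNA of 7 pSHF pools (4 *Shh -/-*, 3 *Shh +/+*) was measured on 1-colour Agilent arrays of 43379 spots and 41174 probes. The authors' deposited scan files hold spot intensity, local background intensity and quality flags (other values) read with Feature Extraction 10.5.1.1, annotated on mm9. A deposited table gives the authors' normalized log2 values, whose medians per array were 5.50 to 9.93 and whose centring is not stated. All columns used were mapped to a sample, and the number of unmapped columns was 0. The labels' genotype and strain entries are swapped and were read by content.

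Mean signals of spots not marked as outliers (155 to 206 spots per array were) were corrected by normexp with 153 negative control spots and an offset of 50, normalized by variance stabilization (VSN, own code, trimming share 0.9, 7 iterations, 5 strata) and put on the log2 scale, after the study's methods. Array medians were then 6.16 to 6.34. Precision is limited by how few arrays there were, and 0 spots were saturated. A probe was tested if it had a gene name, was well above background on all arrays of at least 1 genotype, and had at least 2 values per group. limma 3.58.1 in R 4.3.3 gave the mutant minus wild-type difference with Benjamini-Hochberg adjustment over all 23129 probes, called at an adjusted p under 0.05. SAM, the test of the study's methods, was not run. Probes of a gene were kept apart, and list genes were read by their brightest probe. Scripts were tested on simulated data.

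Named were all 10 genes, and from each list each called gene and up to 3 with the largest change without overlap; other genes were named after their values were seen. The members and lists were chosen with earlier results of these data known.

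The labels' replicate number is a shared slide. Correlations of deviations from the genotype means were 0.192, 0.239 and 0.0330 within slides and −0.22 to 0.187 over 9 pairs of arrays from different slides, so slide was tried as a block. With slide as a fixed block 11 probes were called in place of 129, 0 of them of the 10 genes. Other alternatives were 75th percentile scaling, quantile normalization, local or no background correction, the authors' values, dim probe filters, outlier spots kept, a variance trend and leaving out each array. Figures used matplotlib 3.10.9 in Python 3.11.15.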

Additional observations from a re-analysis of the deposited data

How the results depend on the processing

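No probe of the 10 genes was called (limma) under any alternative (16 tested, 11 with the interquartile range filter, 17 with no filter on dim probes), with 0 to 6 at an unadjusted p under 0.05. Of all probes 129 were called, against 182 with the slide as a random replicate block, 161 with a variance trend, 176 of 11564 with the interquartile range filter, 56 with 75th percentile scaling, 5 with local background, 33 of 34747 with no filter on dim probes, 0 with the authors' values (28 at an unadjusted p under 0.05) and 0 with their values set to 1 median per array (1038), an alternative chosen after seeing the data. Leaving out 1 array gave 12 (without mutant pool 3) to 136, with 14 without wild-type pool 1, 30 without wild-type pool 3, 35 without wild-type pool 4, 37 without mutant pool 2 and 73 without mutant pool 4. With the replicate block (slide) 11 probes were called, and it changed the call of no member. The random replicate block also called *Shh* (adjusted p = 0.0464). Of the 85 tested genes of the pathway and Hedgehog target lists 2 were called, against 0 with the authors' values on either centring, 5 of the 50 tested with the interquartile range filter, 4 with the slide as a random replicate block, and 2 to 3 without 1 array.

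Signs turned for *Prrx2* with local background (0.23) and with 1 median per array (0.33), where the dim *Prrx1* probes also turned (0.028 and 0.022). In the authors' values, with a median of −0.54 over all probes, the turned values were *Snai2* −0.14, *Twist1* −0.47, *Tgfb2* −0.34, *Nfatc1* −0.12 and −0.18, *Cdh2* −0.23, *Acvr1* −0.17, *Col3a1* −0.059, *Adamts9* −0.26, *Tnc* −0.064 and *Hey2* −0.072. Without wild-type pool 1 *Prrx1* (0.02 and 0.0043) and *Prrx2* (0.056) turned, and without mutant pool 3 *Prrx1* (0.080 for A_51_P209771, 0.080 for A_51_P209778 and 0.020 for A_52_P483713) and *Prrx2* (0.03). Leaving out 1 array moved A_52_P483713 between −0.22 and 0.020. The cause was not tested. With 4 against 3 pools the confidence intervals of 12 of the 16 probes lie within a 2-fold change either way, and those of *Postn*, both *Nfatc1* probes and 1 dim *Prrx1* probe reach beyond it.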
